A study of Mus musculus with 18 samples.

Results

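The comparison concerned the day on which an induced pulse of GLI1 ended in differentiating mouse cardiac progenitors. It rested on 6 of the 18 polyA RNA libraries of the series, chosen by their column labels: D6 controls 3, 11 and 15 and D6 GLI1 overexpression (OE) libraries 4, 12 and 16. All 18 libraries came from GLI1-FTA, a single inducible mouse embryonic stem cell line in the A2Lox.cre background, differentiated toward cardiomyocytes. Expression was switched on at D5 with doxycycline at 500 ng/ml and the GLI1 OE cells were taken at D6, after 24 hours of the drug, whereas control cells were labelled untreated. No group tested doxycycline by itself, so effects of the drug and of GLI1 cannot be told apart. Cells harvested later, after washout, gave 2 control and 2 GLI1 OE libraries at D8 and the same at D12, and D5 gave 4 untreated libraries. The labels do not say whether the libraries of a group are separate cultures. Each p-value is therefore set against the spread of these libraries alone, and that spread may be technical.

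Hedgehog ligands bind the receptor Patched, which releases Smoothened from inhibition and lets GLI transcription factors act as activators. GLI1 is both an activator and a target of the pathway, and Patched and the ligand-binding protein HHIP are feedback antagonists that the pathway itself induces. In the embryo the signal patterns the ventral neural tube and acts on progenitors of the second heart field, which add to the outflow tract and the atrial septum. The comparison asked which genes differ while GLI1 is raised in cells that are about to become heart muscle.

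The 6 libraries held 20187924 to 22608134 counts and detected 16260 to 16567 genes. Levels are given below as CPM, the counts of a gene relative to the scaled size of its library. The labels call the cells cardiac progenitors. In D6 controls the progenitor gene Isl1 stood at 24.9, 33.0 and 32.6 CPM in libraries 3, 11 and 15, and Gata4 at 314, 203 and 316 CPM. Muscle genes were also present: Tnnt2, cardiac troponin T, stood at 657, 1523 and 1015 CPM. The summed level of 12 pluripotency markers, 7 of them measured above the expression filter, was 54.9 to 73.6 CPM in controls and 39.4 to 51.4 CPM with GLI1 OE. Libraries with adjacent numbers (3 and 4, 11 and 12, 15 and 16) deviated together from their group means and were treated as pairs in a separate fit. The pairs started from different states: 27 sarcomere genes summed to 9050 CPM in control 3, 19007 CPM in control 11 and 12582 CPM in control 15.

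At D6, 616 of 14892 genes tested (4.14%) differed with GLI1 OE by edgeR's quasi-likelihood test at a Benjamini-Hochberg adjusted p under 0.05. Of these, 449 (3.02%) were higher and 167 (1.12%) were lower. The median log2 fold change was 2.09 among genes that rose and -1.10 among genes that fell, against -0.02 over all genes tested. In all, 230 genes rose and 28 fell by more than 4-fold. Of the genes that rose, 149 had a control mean under 1 CPM. Each of the 616 genes changed in the same direction in 3 of 3 pairs. Over all 14892 genes tested, 4189 rose and 4880 fell in 3 of 3 pairs. The 616 genes were called on these same libraries, so their agreement across pairs is no separate evidence.

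With the pairs in the model and only the 6 D6 libraries, 4576 of 13638 genes (33.6%) were called, 2258 higher (16.6%) and 2318 lower (17.0%). This fit, called the paired fit below, leaves 2 residual degrees of freedom per gene. It also called 593 of the 616 genes. Of the others, 19 fell under its expression filter and 4 did not pass, Sox9 and Igfbp5 among them. The authors' deposited table for this comparison called 1946 genes at the same threshold, which include 610 of the 616 and 1875 of the 4576. Without 1 library the fit without pairs called 330 to 458 genes, with 370 without control 3, 365 without control 15 and 330 without GLI1 OE 16, and 279 of the 616 were called in each of these 6 fits. The lower genes varied most, from 45 without GLI1 OE 16 to 124 without control 11. With the pairs in a fit to all 18 libraries, 667 genes were called, 461 higher and 206 lower. The spread in the 18-library fit also takes in the D8 GLI1 OE libraries, 14 and 18, which stood far apart: their chi-square per gene was 129, against 15.3 to 50.7 for the other replicate pairs of D6, D8 and D12. The 4 D5 libraries, also in that fit, gave 7.17 to 99.2 among themselves. Without library 14 the D6 counts were 521 higher and 276 lower, and without library 18 they were 512 and 288. Counts of list members below stand beside 3.02% higher and 1.12% lower of all genes without pairs, and 16.6% and 17.0% in the paired fit. A share near these is not a result about the list.

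**Figure D1:**
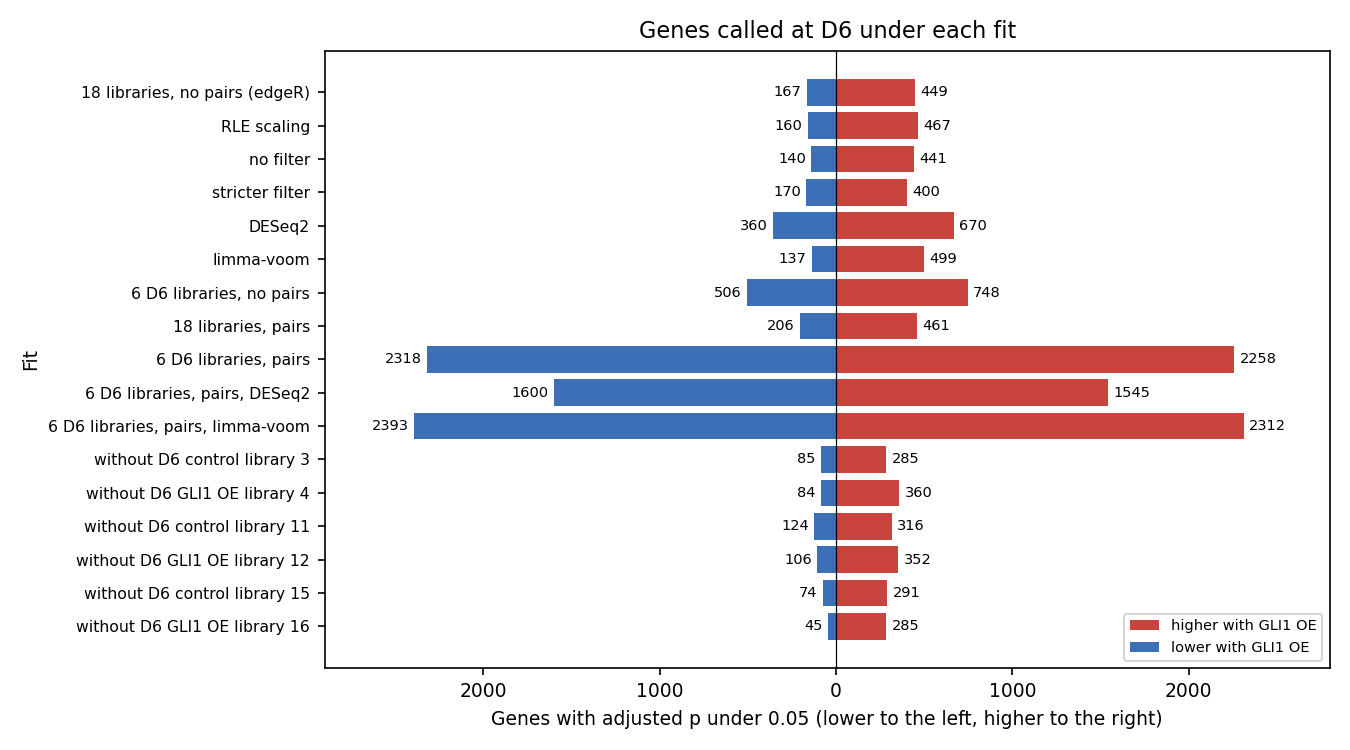
Number of genes called at D6 under each fit (horizontal axis, lower genes to the left in blue and higher genes to the right in red; vertical axis, the fit). The bar for the 6 D6 libraries with pairs (2258 higher, 2318 lower) is nearly symmetric, and the bar for 18 libraries without pairs (449 higher, 167 lower) leans to the right.

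Gli1 was the induced gene and the check of the labels. It stood at 6.84, 21.4 and 13.7 CPM in controls 3, 11 and 15, and at 891, 1050.6 and 785 CPM in GLI1 OE 4, 12 and 16. All treated libraries lay far above all controls (log2 fold change 6.02 ± 0.59 SE, edgeR adjusted p = 4.31e-05). Control 11 had the highest Gli1 of the controls, and it also had the highest Ptch1. The counts do not separate the cell's own transcript from the induced one.

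Hedgehog target genes rose as far as they were called. Of 19 listed genes, 17 passed the expression filter, 9 of them rose and 0 fell, beside 3.02% and 1.12% of all genes. In the paired fit 15 of 16 rose and 0 fell, beside 16.6% and 17.0%. The median log2 fold change was 3.10. The summed level of the list was 1288 to 2135 CPM in controls and 3683 to 4778 CPM with GLI1 OE. The list was drawn up with earlier results of these data known and is not independent evidence of its direction.

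Among the feedback antagonists, Ptch1, the receptor, stood at 34.5, 73.8 and 51.2 CPM in controls and at 899, 1087 and 1044 CPM with GLI1 OE (log2 fold change 4.25 ± 0.35, edgeR adjusted p = 1.53e-05). Hhip, which sequesters ligand, rose from 5.40, 6.51 and 5.14 to 386, 426 and 512 CPM (6.28 ± 0.63, edgeR adjusted p = 5.01e-05). The groups did not overlap in either gene.

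Most other targets that rose encode transcription factors, among them Foxa2, described further on. Foxf1a (Foxf1), a forkhead factor of lateral plate mesoderm, stood at 3.40, 1.07 and 3.64 CPM in controls and 87.9, 81.2 and 115 CPM with GLI1 OE (5.13 ± 0.95, edgeR adjusted p = 0.00627). Foxl1 rose from 0.638, 0.884 and 0.701 to 51.3, 52.0 and 101 CPM (6.51 ± 0.50, edgeR adjusted p = 6.7e-06). Foxf2 rose from 0.419 to 0.808 CPM to between 13.3 and 33.6 CPM (5.15 ± 1.22, edgeR adjusted p = 0.027). Osr1, a factor of the second heart field and kidney mesoderm, rose from 1.96, 5.91 and 2.71 to 27.7, 35.0 and 28.1 CPM (3.10 ± 0.69, edgeR adjusted p = 0.0185). Bcl2, an inhibitor of apoptosis, rose from 24.3, 32.7 and 24.8 to 46.8, 50.1 and 50.5 CPM (0.85 ± 0.19, edgeR adjusted p = 0.02). The calls of Foxf2 and Bcl2 were each lost without any 1 of 5 libraries, sparing GLI1 OE 12 for Foxf2 and control 11 for Bcl2 (highest adjusted p 0.114 and 0.108), and that of Osr1 without control 3, control 15, GLI1 OE 12 or GLI1 OE 16 (highest 0.0994).

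Members that did not pass without pairs included the growth genes. Ccnd2, cyclin D2, stood at 777, 1510 and 914 CPM in controls and 1492, 2341 and 1747 CPM with GLI1 OE, so that the groups overlapped although each pair rose. Its log2 fold change was 0.80 ± 0.28 (edgeR adjusted p = 0.141), and in the paired fit it rose with adjusted p = 0.000283. Foxc2 (1.51 ± 0.48, edgeR adjusted p = 0.11, paired adjusted p = 0.0139) and Foxd1 (3.12 ± 1.25, edgeR adjusted p = 0.221, paired adjusted p = 9.44e-05) rose in the paired fit but did not pass edgeR's test without pairs. Mycn, at 143 to 178 CPM in controls and 157 to 164 CPM with GLI1 OE, had a log2 fold change of -0.02 ± 0.18 and passed in neither fit.

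**Figure D2:**
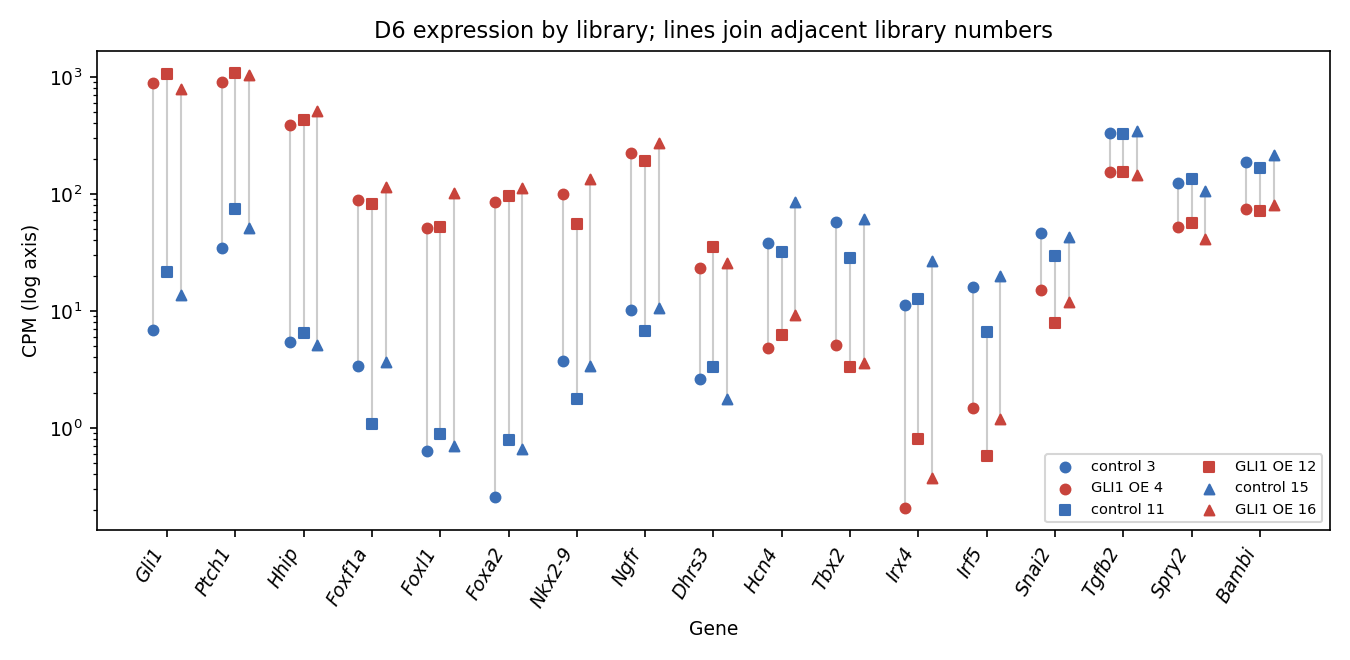
Expression of 17 genes in each D6 library (vertical log axis, CPM; horizontal axis, gene). Blue symbols are controls 3, 11 and 15, red symbols are GLI1 OE 4, 12 and 16, the symbol shape marks the pair, and a grey line joins each pair; in these genes no treated library overlaps a control, and Gli1 rises from 6.84 to 21.4 CPM up to 785 to 1050.6 CPM.

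GLI proteins are known to bind the 9-base motif GACCACCCA. The following stretches show where that motif, or GACCNCCCA with any base at the fifth position, stood just before the start of genes that rose. They come from the RefSeq promoter table of GRCm38.p6, which covers 250 bases before to 50 bases after each start, and the motif was searched on both strands. Capitals mark the motif, which reads TGGGTGGTC or TGGGAGGTC where it lies on the other strand, and each sequence is given 5′ to 3′ on the strand of the gene. The authors' genome build is not given in the sources used here, and no coordinate below comes from their files.
Uaca, chr9:60794221-60794269, plus strand: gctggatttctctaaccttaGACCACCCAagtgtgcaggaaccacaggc
Cltb, chr13:54611401-54611449, minus strand: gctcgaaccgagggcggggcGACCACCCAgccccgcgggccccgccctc
Rab31, chr17:65772770-65772818, minus strand: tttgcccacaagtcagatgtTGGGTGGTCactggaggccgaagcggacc
Dhrs3, chr4:144892765-144892813, plus strand: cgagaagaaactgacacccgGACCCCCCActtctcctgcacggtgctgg
Foxa2, chr2:148045502-148045550, minus strand: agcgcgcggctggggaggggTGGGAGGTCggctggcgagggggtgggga

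The motif GACCACCCA was in the promoter window of 28 of 11651 tested genes with an entry (0.240%), 4 of 342 that rose (1.17%) and 0 of 136 that fell. With any base at the fifth position, 168 of all genes (1.44%), 14 of those that rose (4.09%) and 3 of those that fell (2.21%) held it. The motif, taken from its base nearest the 5′ end of the gene's strand, began 201 bases before the start of Uaca, 56 before Cltb, 46 before Rab31, 42 before Dhrs3 and 66 before the start of the Foxa2 transcript concerned. The Foxa2 stretch lies within an intron of longer Foxa2 transcripts in GENCODE M21. Ptch1, Hhip, Nkx2-9 and Epha8 had no GACCACCCA in this window. A match is a description of letters and no measurement of binding.

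These genes rose by different amounts. Uaca, which encodes a coiled-coil protein, rose from 128, 151 and 138 to 271, 384 and 335 CPM (log2 fold change 1.25 ± 0.20, edgeR adjusted p = 0.00173). Cltb, a clathrin light chain gene, rose from 5.57, 10.7 and 7.52 to 30.02, 54.5 and 47.2 CPM (2.47 ± 0.41, edgeR adjusted p = 0.00288). Rab31, a small GTPase gene of vesicle traffic, was at 59.0 to 67.0 CPM and at 80.9 to 113 CPM (0.60 ± 0.16, edgeR adjusted p = 0.0437), a call lost without any 1 library but GLI1 OE 12 (up to 0.254). These 3 genes and Dhrs3 were chosen for their motif after their values were seen.

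Few pathway components upstream of GLI1 passed the test, and those that did without pairs were lower. Of 19 measured ligands, receptors and transducers, 0 rose and 2 fell, and in the paired fit 2 rose and 8 fell, beside 16.6% and 17.0% of all genes. Gli3, the GLI protein that acts mainly as a repressor, stood at 113, 127 and 121 CPM in controls and at 76.2, 81.5 and 81.0 CPM with GLI1 OE (-0.60 ± 0.11, edgeR adjusted p = 0.00717). Gas1, a co-receptor for the ligand, went from 42.7, 44.4 and 42.8 to 19.5, 19.0 and 16.2 CPM (-1.25 ± 0.25, edgeR adjusted p = 0.0103), a call lost without GLI1 OE 16 (adjusted p 0.0602). Cdon, another co-receptor, fell in the paired fit (-0.76, adjusted p = 0.000304). Smo (Smoothened) rose there by 0.20 log2 units (adjusted p = 0.00885) and Sufu, a GLI inhibitor, by 0.24 (adjusted p = 0.0234), neither passing without pairs. Shh, the ligand gene, was at 0.514 to 2.33 CPM in controls and 0.139 to 0.665 CPM with GLI1 OE.

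Factors known from other lineages rose, several of them from under 1 CPM. Of 27 measured forkhead genes, 7 rose and 0 fell, and of 8 NK homeobox genes 3 rose and 0 fell; in the paired fit the counts were 10 up and 4 down of 26, and 4 up and 1 down of 7. Foxa2, a factor of floor plate and endoderm, stood at 0.255, 0.791 and 0.654 CPM in controls and at 85.5, 95.5 and 112 CPM with GLI1 OE (7.43 ± 0.97, edgeR adjusted p = 0.00042). Nkx2-9, a factor of the ventral neural tube, rose from 3.74, 1.77 and 3.41 to 98.9, 55.3 and 133 CPM (5.01 ± 0.49, edgeR adjusted p = 4.31e-05). Foxe1, a thyroid factor, had 0 counts in the 3 controls and 171 with GLI1 OE, at least 56.6-fold higher when 3 counts are taken as the limit for the control group (edgeR adjusted p = 0.00418). Foxo1, Foxd2 and Nkx2-3 also rose. Their calls were lost without control 15 for Foxo1 (adjusted p 0.0536), without any 1 library for Foxd2 (up to 0.124) and without any control or GLI1 OE 16 for Nkx2-3 (up to 0.0833).

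Some floor plate and endoderm genes rose. Of 12 measured ventral neural tube genes Nkx2-9, Foxa2 and Lmx1b rose and 0 fell without pairs, and in the paired fit 5 of 10 rose and 3 fell. Olig2 and Dbx1 had 0 counts in all 6 libraries and Nkx6-1 had 4 counts in controls and 3 with GLI1 OE, so that these 3 were under the expression filter and were not tested. Nkx2-2, also under the filter and not tested, had 0 counts in controls and 20 with GLI1 OE. The call of Lmx1b was lost without any 1 library but GLI1 OE 12 (up to 0.11). Of 13 measured endoderm markers Foxa2 and Alb rose and 0 fell without pairs, and in the paired fit 5 of 11 rose and 1 fell. Alb, serum albumin, had 1 count in controls and 64 with GLI1 OE, a ratio of 63.6 (exact 95% interval 11.01 to 2550, counting error only), and its call was lost without any 1 library but GLI1 OE 12 (up to 0.0833). Hnf4a, with 4 counts in controls and 3 with GLI1 OE, was under the filter and not tested. The summed endoderm markers, Foxa2 among them, were 121 to 179 CPM in controls and 195 to 228 CPM with GLI1 OE. In each pair Foxa2 by itself rose by more than the sum did, so the other markers together were lower. Their part in the result was not tested.

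Some SOX factor genes also rose. Of 14 measured, 5 rose and 0 fell, and 7 rose and 2 fell of 12 in the paired fit. Sox11, a factor of progenitor cells, stood at 224, 223 and 206 CPM in controls and at 448, 544 and 547 CPM with GLI1 OE (1.24 ± 0.23, edgeR adjusted p = 0.00567), and Sox4, its close relative, rose by 1.10 ± 0.21 (edgeR adjusted p = 0.00698). Sox9, a factor of cartilage and valve mesenchyme, went from 77.4, 43.9 and 38.4 to 149, 158 and 175 CPM (1.60 ± 0.29, edgeR adjusted p = 0.00548) but missed the threshold in the paired fit (adjusted p = 0.061). Sox8 rose by 2.63 ± 0.51 (edgeR adjusted p = 0.00815) but did not pass without control 3 (0.0532). Sox18, an endothelial factor, rose from 24.4, 10.2 and 15.6 to 99.6, 68.6 and 100.5 CPM (2.42 ± 0.59, edgeR adjusted p = 0.0324), a call lost without any 1 library (up to 0.131). Endothelial markers as a list were lowest in pair 11 and 12: they summed to 395 CPM in control 11 against 872 and 626 CPM in controls 3 and 15, and to 517 CPM in GLI1 OE 12 against 917 and 896 CPM. The list holds Sox18 itself, which was the 1 marker that rose without pairs. In the paired fit 8 of these 15 markers rose and 1 fell, and the part of the other markers in the rise of Sox18 was not tested.

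Most cardiac transcription factors were lower with GLI1 OE, and how many passed the test depended on the fit. Of 19 measured core factors and natriuretic peptide genes, 0 rose and 2 fell, Tbx2 and Irx4, and in the paired fit 15 fell and 0 rose, beside 17.0% and 16.6% of all genes. With the pairs in the fit to all 18 libraries 2 fell and 0 rose, and DESeq2 without pairs called 4 lower. The list median was -1.20, and 10 of 19 genes were lower in every treated library than in every control, beside 13.8% of all genes. In bulk RNA a smaller share of a cell type and less RNA per cell cannot be told apart.

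Tbx2, a repressor of chamber genes in non-chamber myocardium, stood at 57.9, 28.3 and 61.2 CPM in controls and at 5.09, 3.32 and 3.56 CPM with GLI1 OE (log2 fold change -3.62 ± 0.47, edgeR adjusted p = 0.000412). Irx4, a ventricular factor, went from 11.2, 12.7 and 26.8 CPM to 0.207, 0.807 and 0.370 CPM (-5.20 ± 0.98, edgeR adjusted p = 0.00681). Both calls held without each library in turn. Tbx20, needed for chamber growth, went from 458, 317 and 655 to 116, 92.9 and 104 CPM, a separation that missed the threshold without pairs (-2.19 ± 0.60, edgeR adjusted p = 0.0587, paired adjusted p = 0.0194). Gata4 went from 314, 203 and 316 to 107, 90.4 and 99.8 CPM (-1.49 ± 0.47, edgeR adjusted p = 0.113, paired adjusted p = 0.00193).

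Tbx5, a factor of atria and left ventricle, was at 32.8 to 52.0 CPM in controls and 10.5 to 18.8 CPM with GLI1 OE, and fell in the paired fit (adjusted p = 0.0172). Hand1 showed how the pairs mattered: it was 369, 101 and 415 CPM in controls and 144, 50.3 and 124 CPM with GLI1 OE, so that control 11 lay below 2 treated libraries while each pair fell (paired adjusted p = 0.017, edgeR adjusted p without pairs 0.427). Nkx2-5, the early cardiac homeobox factor, did not follow. It was at 31.8, 51.2 and 47.1 CPM in controls and 44.3, 37.3 and 32.5 CPM with GLI1 OE, higher in pair 3 and 4 and lower in the others (paired log2 fold change -0.16, adjusted p = 0.704). Mef2a, Hey2 and Nppa also passed in neither fit.

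The T-box and Iroquois families overlapped with this list. Of 17 measured members listed 3 fell and 0 rose, and in the paired fit 11 of 14 fell and 2 rose. With the pairs in the fit to all 18 libraries 2 fell and 0 rose. Tbx10, a T-box gene that was not listed, rose from 1 control count to 34 with GLI1 OE (edgeR adjusted p = 0.0403). Irx3 was the other listed member that fell, from 13.2, 14.4 and 12.7 to 6.49, 4.65 and 5.97 CPM (-1.23 ± 0.30, edgeR adjusted p = 0.0283), a call lost without any 1 library (up to 0.113). Irx1, Irx2 and Irx5 fell in the paired fit. Listed T-box genes that went the other way included Tbx1, a factor of the second heart field, and T (brachyury). Tbx1 was at 0.893 to 3.77 CPM in controls and 2.77 to 5.27 CPM with GLI1 OE (paired log2 fold change 0.99, adjusted p = 0.0366, edgeR adjusted p without pairs 0.747). T had 120 counts in controls and 756 with GLI1 OE and did not pass without pairs.

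**Figure D3:**
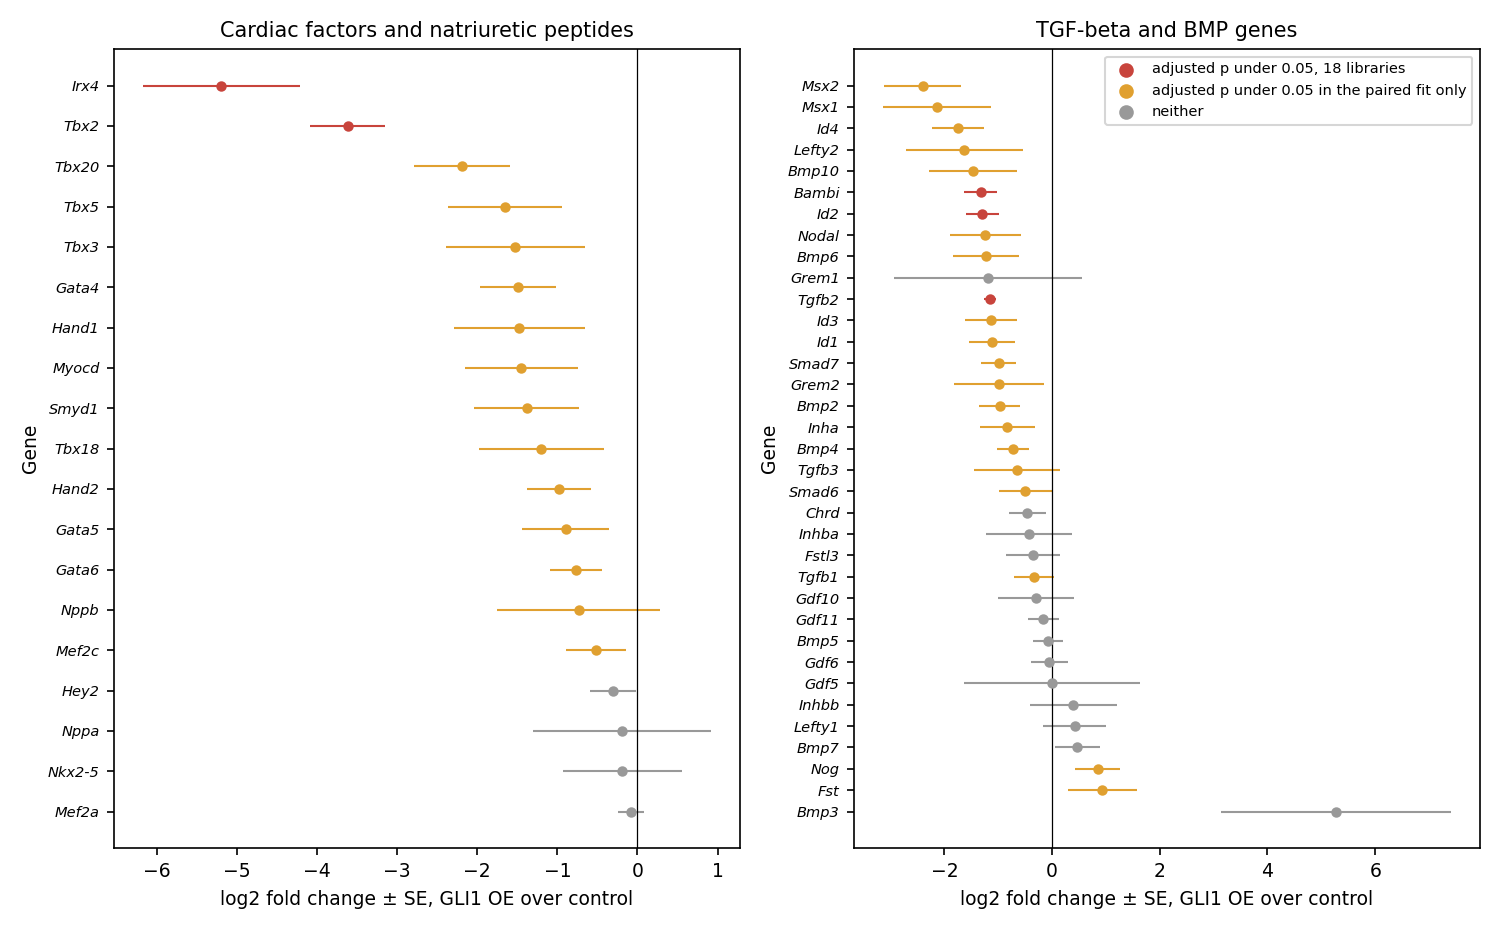
Log2 fold change with its SE (horizontal axis, GLI1 OE over control at D6) for each measured gene (vertical axis) of the cardiac factor list on the left and the TGF-beta and BMP list on the right. Red points passed the test over 18 libraries, orange points passed in the paired fit only, and grey points passed in neither; most points on the left lie below 0, from Irx4 at -5.20 to Mef2a at -0.08.

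Genes of the contractile apparatus were lower in each pair for most members, and none passed edgeR's test without pairs. Of 27 measured sarcomere genes 0 rose and 0 fell in edgeR's test over 18 libraries, where 5 had an unadjusted p under 0.05, against 1 called by DESeq2 and 0 by limma-voom. Of the sarcomere genes, 12 of 26 fell and 0 rose in the paired fit. In 3 of 3 pairs 23 of 27 were lower, beside 4880 of all 14892 genes tested. On the same 6 libraries with pairs, DESeq2 and limma-voom called 20 lower each, whereas edgeR with pairs on all 18 libraries called 0. Actc1, cardiac actin, was at 1212, 2559 and 1725 CPM in controls and at 275, 1008 and 311 CPM with GLI1 OE (-1.79 ± 0.73, edgeR adjusted p = 0.234, paired adjusted p = 0.0401). Myh6, the alpha myosin heavy chain, was at 401, 1163 and 847 CPM in controls and 83.4, 339 and 92.5 CPM with GLI1 OE (-2.23 ± 0.96, edgeR adjusted p = 0.261, paired adjusted p = 0.0424). In these genes GLI1 OE 12 stood above the other treated libraries, as control 11 did among the controls for Actc1 and Myh6. Desmin (Des) fell in the paired fit, from 355, 453 and 312 to 180, 212 and 126 CPM (adjusted p = 0.000124).

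Sarcomere genes summed to 9050, 19007 and 12582 CPM in controls 3, 11 and 15 and to 4185, 10257 and 4067 CPM in GLI1 OE 4, 12 and 16. The groups overlapped, and the exact two-sided permutation test over the 6 libraries gave p = 0.2, where the smallest p that 3 against 3 can give is 0.1. The 10 cardiomyocyte markers summed to 4919, 11727 and 7665 CPM in controls and 1615, 5024 and 1725 CPM with GLI1 OE (exact permutation p = 0.2).

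Some pacemaker and channel genes fell. Of 28 measured genes for calcium handling, channels and pacemaking, 3 fell and 1 rose without pairs, and 14 of 25 fell and 4 rose in the paired fit. Hcn4, the pacemaker channel of the early heart tube and sinus node, was at 38.3, 31.7 and 85.9 CPM in controls and 4.84, 6.17 and 9.20 CPM with GLI1 OE (-2.95 ± 0.39, edgeR adjusted p = 0.000447). Kcnj5, a subunit of the acetylcholine-gated potassium channel, went from 48.7, 74.7 and 56.3 to 5.58, 12.5 and 2.82 CPM (-3.10 ± 0.77, edgeR adjusted p = 0.0344), a call lost without any 1 library but GLI1 OE 12 (up to 0.171). Kcnh2, a repolarising channel, fell by 1.51 ± 0.33 log2 units (edgeR adjusted p = 0.0181) but did not pass without control 15 or any 1 GLI1 OE library (up to 0.0881).

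Casq2, a calcium-storage protein of cardiac sarcoplasmic reticulum, rose against the direction of its list. It stood at 0.765, 0.698 and 1.21 CPM in controls and at 17.6, 14.0 and 22.9 CPM with GLI1 OE (4.34 ± 0.72, edgeR adjusted p = 0.00283). Another channel gene rose from 1 control count: Kcns2, a modifier subunit of voltage-gated potassium channels, had 454 counts with GLI1 OE, a ratio of 451 (exact 95% interval 80.5 to 17851). By edgeR without pairs it was the 1 of 30 measured genes on the list of voltage-gated potassium channel subunits that rose. DESeq2 called 3 of the list higher and 3 lower, and in the paired fit 4 of 24 rose and 8 fell. Potassium channel genes outside that list also rose without pairs. Kcnt1 had 2 control counts and 205 with GLI1 OE (edgeR adjusted p = 0.00918), and Kcnk12 had 1 and 44 (edgeR adjusted p = 0.0305). Kcnh2 and Kcna5 fell without pairs, the latter by 1.44 ± 0.35 (edgeR adjusted p = 0.0304), lost without control 11, control 15, GLI1 OE 4 or GLI1 OE 16 (up to 0.13).

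Genes of the second heart field did not move as a block. Of 20 measured progenitor genes 2 rose, Osr1 and Six2, and 0 fell, and in the paired fit 6 rose and 7 fell of 19. Six2 stood at 4.68, 3.07 and 4.39 CPM in controls and 38.1, 43.1 and 47.7 CPM with GLI1 OE (3.41 ± 0.83, edgeR adjusted p = 0.0314), although its call was lost without any 1 library (up to 0.125). Isl1 was at 24.9 to 33.0 and 27.4 to 37.3 CPM and passed in neither fit. Fgf10, a ligand of these progenitors, was at 42.7 to 80.4 and 27.7 to 84.1 CPM and also passed in neither. Wnt2 and Hoxb1 fell in the paired fit, with adjusted p of 0.0045 and 0.00865.

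**Figure D4:**
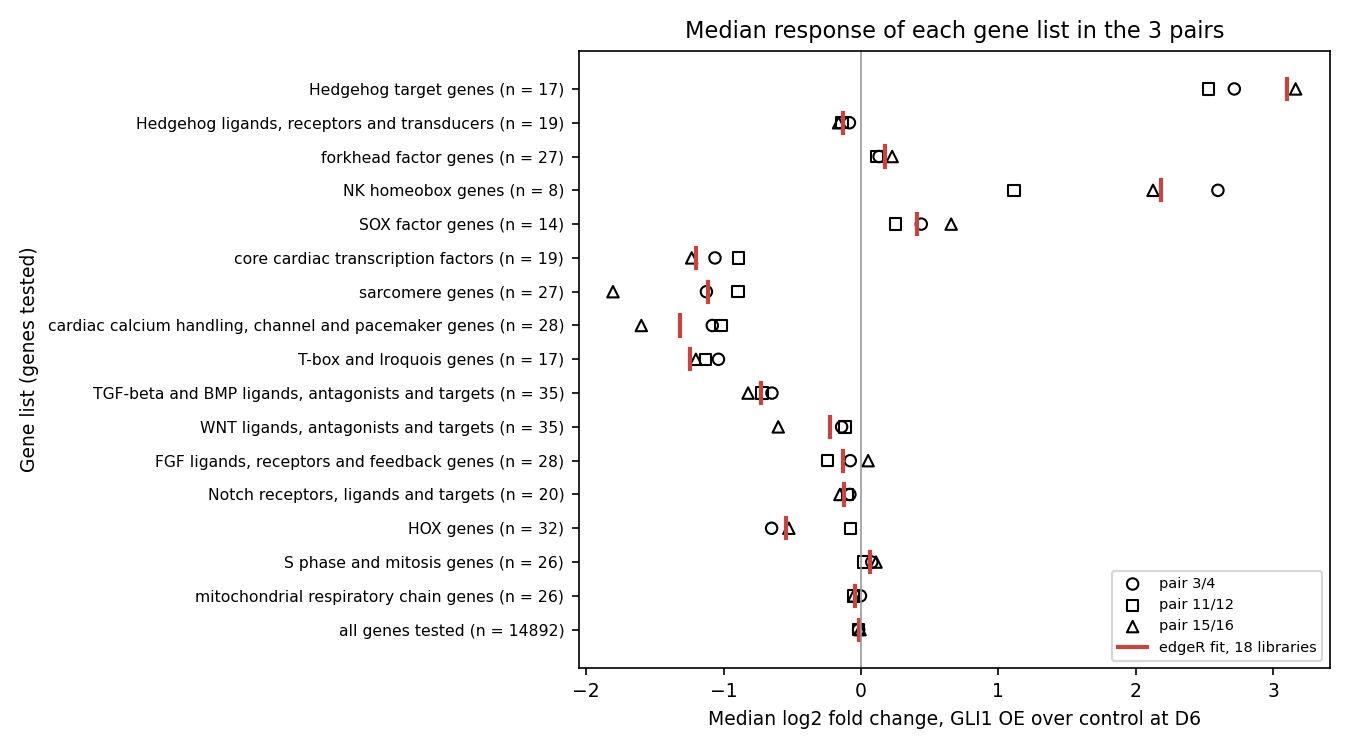
Median log2 fold change of each gene list at D6 (horizontal axis) by list (vertical axis, number of genes tested in brackets). Open symbols are the 3 pairs and the red bar is the edgeR fit over 18 libraries; the Hedgehog target median is 3.10, the core cardiac factor median is -1.20, and all genes tested lie at -0.02.

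Genes of TGF-beta and BMP signalling were lower as a list. Of 35 measured ligands, antagonists and targets 3 fell and 0 rose, and in the paired fit 20 of 28 fell and 2 rose, beside 17.0% and 16.6% of all genes. With the pairs in the fit to all 18 libraries 2 fell and 0 rose, and DESeq2 without pairs called 6 lower. The median was -0.73, and 14 of 35 lay below every control in every treated library, beside 13.8% of all genes. The list summed to 1633 to 2125 CPM in controls and 985 to 1235 CPM with GLI1 OE.

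The ligand gene Tgfb2, known in cushion formation, fell from 331, 324 and 347 to 153, 154 and 144 CPM (-1.15 ± 0.12, edgeR adjusted p = 4.74e-05). Bmp4 and Bmp2 fell in the paired fit, Bmp4 from 237, 167 and 227 to 151, 101 and 128 CPM (adjusted p = 1.95e-05) and Bmp2 by 0.97 log2 units (adjusted p = 4.49e-05). Of the target genes, Id2 fell from 174, 123 and 189 to 84.1, 61.5 and 52.3 CPM (-1.29 ± 0.30, edgeR adjusted p = 0.0261), and Bambi, a decoy receptor, from 188, 166 and 213 to 74.2, 71.6 and 80.8 CPM (-1.32 ± 0.31, edgeR adjusted p = 0.024). Id1, Id3, Id4, Smad7, Msx1 and Msx2 fell in the paired fit but did not pass edgeR's test without pairs. The antagonists Nog (0.89, paired adjusted p = 0.000389) and Fst (0.95, paired adjusted p = 0.0305) were the members that rose there. The call of Id2 was lost without control 3, control 15, GLI1 OE 12 or GLI1 OE 16 (up to 0.14) and that of Bambi without any 1 library but control 11 (up to 0.09).

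Among FGF genes 4 of 28 measured rose and 1 fell. Fgf3 rose from 2.21, 0.372 and 0.701 to 134, 100.1 and 108 CPM (6.68 ± 1.02, edgeR adjusted p = 0.00149), and Fgf15 from 17.98, 3.63 and 3.46 to 291, 213 and 196 CPM (4.80 ± 0.86, edgeR adjusted p = 0.00486). Fgf14, an intracellular member of the family, had 3 control counts and 281 with GLI1 OE, a ratio of 93.0 (exact 95% interval 31.5 to 454). Fgf5 rose by 2.36 ± 0.62 (edgeR adjusted p = 0.0473), lost without any 1 library (up to 0.164). Spry2, a feedback inhibitor of FGF receptors, fell from 124, 135 and 107 to 52.2, 56.1 and 41.1 CPM (-1.29 ± 0.18, edgeR adjusted p = 0.000637). In the paired fit 8 of 25 FGF genes rose and 7 fell.

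Of 35 measured WNT genes 1 rose and 2 fell without pairs, beside 3.02% and 1.12% of all genes, and in the paired fit 5 of 29 rose and 11 fell, beside 16.6% and 17.0%. The rising shares were near those of all genes. Wif1, a secreted WNT antagonist, rose from 0.935, 1.02 and 1.45 to 16.9, 15.2 and 24.6 CPM (4.05 ± 0.72, edgeR adjusted p = 0.00472). Dkk1, another antagonist and a WNT target, fell from 51.0, 40.2 and 47.6 to 12.5, 11.1 and 7.17 CPM (-2.17 ± 0.42, edgeR adjusted p = 0.00782), a call lost without GLI1 OE 16 (0.0552). Nkd1, also a target, fell by 0.89 ± 0.22 (edgeR adjusted p = 0.0298), lost without any 1 library but control 11 (up to 0.123). Ctnnb1, beta-catenin, was the most abundant gene that rose, from 1275, 1323 and 1394 to 1848, 2095 and 2219 CPM (0.63 ± 0.09, edgeR adjusted p = 0.000793).

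Of 20 Notch genes Hey1 and Heyl, target repressors, rose and 0 fell. Hey1 went from 19.2, 14.8 and 10.4 to 59.99, 47.5 and 52.3 CPM (1.85 ± 0.31, edgeR adjusted p = 0.00308), and Heyl rose by 2.66 ± 0.60 (edgeR adjusted p = 0.0208), lost without control 3, control 15, GLI1 OE 4 or GLI1 OE 12 (up to 0.109). Of 19 retinoic acid genes Dhrs3, which reduces retinaldehyde, rose from 2.64, 3.30 and 1.78 to 23.3, 35.2 and 25.7 CPM (3.44 ± 0.26, edgeR adjusted p = 6.09e-06). Cyp26b1, which degrades retinoic acid, fell by 1.75 ± 0.42 (edgeR adjusted p = 0.0274), lost without control 3, control 11, GLI1 OE 4 or GLI1 OE 16 (up to 0.115).

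Guidance genes changed singly, some by large amounts. Epha8, an ephrin receptor of the nervous system, stood at 0.085, 0.093 and 0.140 CPM in controls and 68.5, 40.1 and 78.9 CPM with GLI1 OE (9.14 ± 0.52, edgeR adjusted p = 3.29e-07). Among called genes with a mean log2 CPM of at least 1 at D6, this was the largest log2 fold change. Ntng1, a membrane-bound netrin relative, rose from 0.723, 2.05 and 0.794 to 97.6, 121 and 141 CPM (6.66 ± 0.79, edgeR adjusted p = 0.000184). Efna4, an ephrin ligand, rose by 1.27 ± 0.16 (edgeR adjusted p = 0.000335). Of 21 Eph and ephrin genes Epha8 and Efna4 rose and Epha4 fell (-1.07 ± 0.26, edgeR adjusted p = 0.0346), the last call lost without any 1 library (up to 0.143). Of 48 semaphorin, netrin and slit genes Ntng1 and Sema4a rose and Unc5b fell, beside 3.02% and 1.12% of all genes, and in the paired fit 15 of 44 rose and 8 fell, beside 16.6% and 17.0%. Other than the rises in the paired fit, these shares were near those of all genes. The call of Sema4a was lost without control 15 (0.0551) and that of Unc5b without control 3, control 15, GLI1 OE 12 or GLI1 OE 16 (up to 0.0817).

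Other genes of large rise included Hapln3, which links hyaluronan to proteoglycan, at 2.85, 4.47 and 3.32 CPM in controls and 402, 522 and 467 CPM with GLI1 OE (7.03 ± 0.64, edgeR adjusted p = 2.86e-05). Apba2, an adaptor protein of synapses, rose by 7.22 ± 0.66 (edgeR adjusted p = 2.82e-05) and Lrrc15, a surface protein of matrix-producing cells, by 6.61 ± 0.72 (edgeR adjusted p = 9.66e-05). Ngfr, the low-affinity neurotrophin receptor and a neural crest marker, rose from 10.2, 6.79 and 10.7 to 223, 189 and 273 CPM (4.63 ± 0.35, edgeR adjusted p = 6.53e-06). The other crest markers did not rise with it as a list: Snai2 fell from 46.2, 29.6 and 43.1 to 15.2, 7.83 and 11.9 CPM (-1.76 ± 0.30, edgeR adjusted p = 0.00343), Sox10 had 10 counts in controls and 4 with GLI1 OE, and Foxd3 had 0 and 2. Of 8 measured crest markers 2 rose, Ngfr among them, and 1 fell.

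Other large falls reached genes of different kinds. Irf5, an interferon regulatory factor, went from 16.1, 6.60 and 19.99 to 1.49, 0.570 and 1.20 CPM (-3.70 ± 0.69, edgeR adjusted p = 0.00663). Igfbp5, an insulin-like growth factor binding protein, was at 381, 91.4 and 576 CPM in controls and 54.0, 38.7 and 60.3 CPM with GLI1 OE (-2.78 ± 0.67, edgeR adjusted p = 0.0311, paired adjusted p = 0.0753), with control 11 nearest to the treated libraries. Its call was lost without any 1 library but control 11 (up to 0.134). Corin, the protease that activates natriuretic peptide, fell by 2.58 ± 0.67 (edgeR adjusted p = 0.0439), lost without any 1 library (up to 0.199). Cdh2, N-cadherin, fell from 388, 409 and 392 to 184, 199.9 and 176 CPM (-1.09 ± 0.20, edgeR adjusted p = 0.00617), and Tnc, the matrix protein tenascin C, from 391, 447 and 368 to 80.4, 128 and 77.0 CPM (-2.08 ± 0.42, edgeR adjusted p = 0.0114), a call lost without GLI1 OE 4 or GLI1 OE 16 (up to 0.07).

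Several lists showed no call without pairs. None of 26 S phase and mitosis genes, 12 developmental timing genes, 26 respiratory chain genes, 20 genes of the ATF4 stress response, 24 cholesterol synthesis genes or 32 HOX genes passed in edgeR's test over 18 libraries. An unadjusted p under 0.05 was found for 0, 0, 0, 1, 1 and 2 of them in that order, DESeq2 called 1 ATF4 gene and 0 in the other 5 lists, and limma-voom called 0 in each. In the paired fit 10 S phase and mitosis genes rose and 3 fell of 26, 5 timing genes rose of 12, and 7 HOX genes fell of 30 with 0 rising. Rrm2, a subunit of ribonucleotide reductase, was among those that rose (0.39, paired adjusted p = 0.000266). Blood markers were lower in the paired fit for 7 of 12 and higher for 1, with sums of 788, 361 and 250 CPM in controls 3, 11 and 15 and 296, 277 and 160 CPM in GLI1 OE 4, 12 and 16.

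The D6 response was set beside the same comparison on the later days, after washout. At D8 and at D12, 0 genes were called between GLI1 OE and control by edgeR (886 and 840 had an unadjusted p under 0.05), DESeq2 called 40 and 14, and limma-voom 0 and 1, with 2 libraries a group. The 2 GLI1 OE libraries of D8 stood far apart, as given above, so each D8 result was also taken without 1 of them, with the remaining library assumed to vary like the other groups. Without library 14 edgeR called 49 genes at D8, 28 higher and 21 lower, and without library 18 it called 0 (724 with an unadjusted p under 0.05). The 449 genes that rose at D6 had a median log2 fold change of 0.15 at D8 and 0.05 at D12. For the 167 that fell these medians were -0.22 and -0.14. Both sets were chosen by their D6 values, which by itself can make medians on other days smaller, so these do not measure how much of the response remained. Without library 14 the D8 medians were 0.19 and -0.48, and without library 18 they were 0.03 and -0.09. The effect at D6 differed from that at D8 for 94 genes (0.631%) by edgeR's interaction test, 84 of them more positive at D6 (0.564%) and 10 more negative (0.0672%). It differed from that at D12 for 90 genes (0.604%), 76 more positive (0.510%) and 14 more negative (0.0940%). Without 1 D6 library the first count was 57 to 71, with 57 without control 3 and 60 without control 15, and the second was 59 to 76, lowest without GLI1 OE 16. Without D8 GLI1 OE 14 or 18 the first count was 81 (65 more positive and 16 more negative) and 91 (66 and 25).

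Gli1 had a log2 fold change of 0.30 at D8 and 0.18 at D12, against 6.02 at D6. Ptch1 stood at 1.20 and -0.11, against 4.25. Among the lower genes, Tbx2 was -3.62 at D6 but 1.15 at D8 and 1.68 at D12, and Tgfb2 was -1.15, 0.63 and -0.12. The D8 values of 4 factors rested mostly on GLI1 OE 18. Foxa2 stood at 0.089 and 0.087 CPM in D8 controls 13 and 17, at 0.231 CPM in GLI1 OE 14 and at 9.26 CPM in GLI1 OE 18. Foxf1a was at 2.13 and 21.1 CPM in the treated libraries, Foxf2 at 0.509 and 20.1 CPM and Nkx2-3 at 3.56 and 25.7 CPM. Their fitted log2 fold changes at D8 were 5.67, 4.78, 7.17 and 6.99, and none passed (edgeR adjusted p = 0.489 for each). Without library 14 they were 6.61, 5.63, 8.12 and 7.78, of which Foxa2, Foxf2 and Nkx2-3 passed (edgeR adjusted p = 0.014, 0.0476 and 0.0437) and Foxf1a did not (0.0651). Without library 18 they were 1.34, 2.34, 2.85 and 4.95, and none passed. The difference between D6 and D8 passed for none of the 4 in any of these fits. The core cardiac factor median was -0.17 at D8 and -0.46 at D12, and the Hedgehog target median 1.00 and 0.91. This D8 target median was the value of Hhip. Hhip stood at 0.787 CPM in GLI1 OE 14, below both D8 controls, and at 7.72 CPM in GLI1 OE 18. Its D8 log2 fold change was 1.84 without library 14 and -1.43 without library 18. For Ptch1 these values were 1.72 and 0.34. The D8 target median therefore does not show whether the targets stayed raised.

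**Figure D5:**
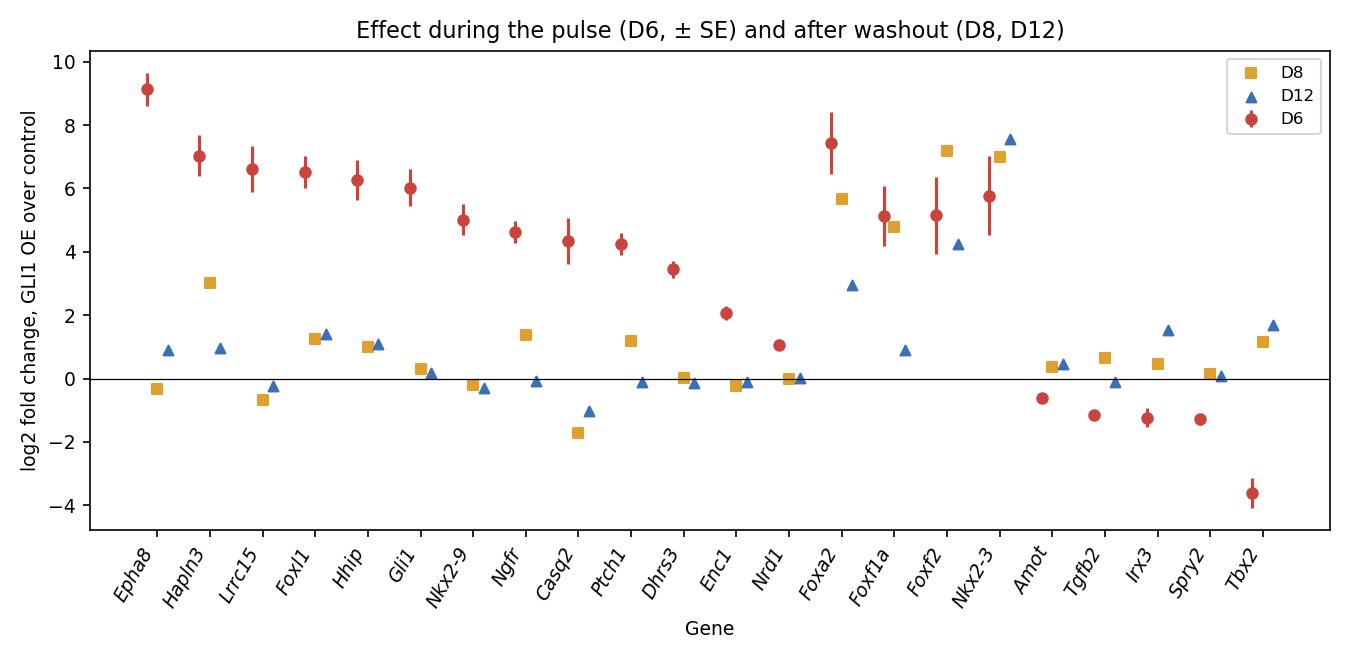
Log2 fold change of GLI1 OE over control (vertical axis) for 22 genes (horizontal axis) at D6 (red circles with SE), D8 (orange squares) and D12 (blue triangles). Gli1 lies at 6.02 at D6 and at 0.30 and 0.18 later, and Foxa2, Foxf1a, Foxf2 and Nkx2-3 have D8 values from 4.78 to 7.17 that did not pass the test and that fall to between 1.34 and 4.95 without GLI1 OE library 18.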

How the data were processed

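Per the labels' protocols, polyA RNA gave strand-specific single reads 50 bases long. The authors deposited raw counts per gene symbol for 18 libraries. The sources used here name no aligner, counter, strand setting or genome build, so overlapping and antisense genes and near-identical copies are uncertain. The authors' deposited D6 table has the column names DESeq2 writes: a mean normalised signal, log2 fold changes, score columns (standard error and test statistic) and p-values. It served only for the overlaps named as theirs.

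Counts were analysed with edgeR 4.0.16 in R 4.3.3. Of 23337 genes, 14892 passed filterByExpr (minimum count 10). Libraries were scaled by TMM, 7 groups by day and condition were fitted to all 18 libraries with a robust quasi-likelihood model, and p-values were adjusted by Benjamini-Hochberg over all genes. SE is the log2 fold change divided by the square root of F. The paired fit took the 3 pairs of D6 libraries as a block. The column numbers give no pairing in words. Their deviations from group means correlated at r = 0.706 (3 and 4), 0.779 (11 and 12) and 0.623 (15 and 16) over 11854 genes, against -0.58 to 0.09 for other combinations. Each adjacent pair thus exceeded 0.1, and the pairs were used as a block. Deviations within a group sum to 0, so a positive value for an adjacent pair lowers the others, which are no independent contrast. The pairing was judged on the same counts that the paired fit then tested.

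Alternatives were RLE scaling, no filter, a minimum count of 30, DESeq2 1.42.0, limma-voom (limma 3.58.1), only the 6 D6 libraries, blocks, and leaving out 1 D6 library, 1 pair or 1 D8 GLI1 OE library. The model was tested on simulated data. Members and all 40 gene lists (826 symbols, 812 in the table, 5 of them under older names) were chosen with earlier results of these data known. A list of mitochondrially encoded genes had 0 in the table. Genes named were Gli1, the 10 largest rises and falls among called genes whose groups did not overlap and whose mean log2 CPM reached 1, the 8 most abundant called genes in each direction, and the called members and 4 smallest p-values of each list, described selectively, and a few genes that the rule chose are not reported here. Other genes singled out were chosen after their values were seen. Exact 95% intervals and the floor of 3 counts cover counting error only.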

Additional observations from a re-analysis of the deposited data

Results flagged for a closer look

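The effect of GLI1 OE at D6 differed from the effect at D8 for 94 genes and from the effect at D12 for 90 genes, by edgeR's test of the difference itself at an adjusted p under 0.05. Among the induced gene and its targets, the D6 effect exceeded the D8 effect by 5.72 log2 units for Gli1, 3.05 for Ptch1, 5.28 for Hhip and 5.27 for Foxl1. It exceeded the D12 effect by 5.84 for Gli1, 4.36 for Ptch1 and 5.11 for Foxl1. The difference for Hhip did not pass against D12 (edgeR adjusted p = 0.151).

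Genes not on the list of Hedgehog targets differed between days as well. Against D8 the difference was 9.48 for Epha8, 7.30 for Lrrc15, 6.06 for Casq2, 5.22 for Nkx2-9, 3.43 for Dhrs3, 3.24 for Ngfr, 2.31 for Enc1 and 1.07 for Nrd1. Against D12 it was 9.40 for Fgf14, 8.23 for Epha8, 6.86 for Lrrc15, 6.08 for Hapln3, 5.38 for Casq2, 4.70 for Ngfr, 3.59 for Dhrs3, 2.16 for Enc1 and 1.04 for Nrd1. The fitted value of Fgf14 rests on 3 control counts at D6 and depends on the prior count.

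For genes that fell at D6 the difference had the other sign. Tbx2 differed by -4.77 from its D8 effect and by -5.30 from its D12 effect, Tgfb2 by -1.78 and -1.03, and Spry2 by -1.43 and -1.38. Irx3 and Amot passed against D12, at -2.77 and -1.07. Without D8 GLI1 OE library 14 or 18, which stood far apart, the D6 to D8 difference of Gli1 (edgeR adjusted p = 0.0965 and 0.0669), Casq2 (0.102 and 0.0983), Nkx2-9 (0.0957 and 0.0732) and Spry2 (0.0527 and 0.0836) no longer passed, and the other D8 differences named here passed in both fits. The later days rest on 2 libraries a group, and day and time since washout cannot be told apart.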

How the results depend on the processing

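With the replicate block on the 6 D6 libraries, 4576 genes were called (2258 higher, 2318 lower), against 616 (449 and 167) without pairs. DESeq2 with this block called 3145 (1545 and 1600) and limma-voom 4705 (2312 and 2393). The same 6 libraries without pairs gave 1254 (748 and 506). DESeq2 on 18 libraries gave 1030 (670 and 360), and 233 and 281 genes whose D6 effect differed from D8 and D12. A block fitted to all 18 libraries gave 667. The share of calls that were higher was 72.9% on 18 libraries without pairs, 69.1% with the block on 18, 59.6% on the 6 D6 libraries without pairs and 49.3% with both changes. RLE scaling, no filter, a stricter filter and limma-voom gave 570 to 636.

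Without 1 D6 library, 330 to 458 genes were called, 285 to 360 higher and 45 to 124 lower, and 57 to 71 and 59 to 76 differed from D8 and D12. Without both libraries of a pair, chosen after seeing the data, the counts were 226 (191 and 35) without 3 and 4, 249 (207 and 42) without 11 and 12, and 185 (166 and 19) without 15 and 16. The counts that differed from D8 were then 42, 55 and 27, and from D12 41, 52 and 30. Without D8 GLI1 OE library 14 or 18, also chosen after seeing the data, 276 and 288 genes were lower at D6. The cause of these changes was not tested, and each such fit has fewer samples.

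None of the results recomputed changed its sign when called. Of 166 genes chosen by rule, 87 were called, and 43 of these lost the call without at least 1 library. The paired fit ended the calls of Sox9 and Igfbp5 among the 166, and added 66. Depth limits genes with 3 or fewer counts in a group, whose folds carry wide intervals.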

Other observations

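Of 26 measured genes of antigen presentation and interferon regulation, 2 rose and 2 fell without pairs, beside 3.02% and 1.12% of all genes. In the paired fit 2 of 18 rose and 4 fell, shares near the 16.6% and 17.0% of all genes. Ciita, the master activator of MHC class II genes, had 2 counts in controls and 854 with GLI1 OE, a ratio of 424 (exact 95% interval 117 to 3508, edgeR adjusted p = 0.000124). Class II genes on the list were not called without pairs. H2-Ab1 had 314 counts in controls and 318 with GLI1 OE, H2-Eb1 21 and 25, and H2-DMb1 10 and 14. H2-DMa had 81 and 64, Cd74 had 15 and 7, and H2-Aa, under the filter, had 19 and 25. Irf8, a factor of myeloid cells, rose from 0.213, 0.372 and 0.280 to 2.94, 4.51 and 5.50 CPM (log2 fold change 3.88 ± 0.70, edgeR adjusted p = 0.00487). Tapbp, a peptide-loading chaperone, had a log2 fold change of -0.68 ± 0.15 (edgeR adjusted p = 0.0189), which no longer passed without control 3, control 15, GLI1 OE 4 or GLI1 OE 16 (up to 0.099).

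Among abundant genes, Enc1, which encodes an actin-binding adaptor, rose from 133, 172 and 129 to 519, 728 and 567 CPM (2.06 ± 0.22, edgeR adjusted p = 6.02e-05). Nrd1, a metalloprotease gene, rose from 230, 241 and 231 to 437, 546 and 467 CPM (1.05 ± 0.10, edgeR adjusted p = 4.31e-05). Amot, angiomotin, fell from 682, 716 and 677 to 444, 448 and 453 CPM (-0.62 ± 0.14, edgeR adjusted p = 0.017), a call lost without any 1 library (up to 0.0675). Of 44 collagen and matrix genes 1 rose and 1 fell, Fbln1 and Tnc, near the 3.02% and 1.12% of all genes. In the paired fit 8 of 43 rose, near the 16.6% of all genes, and 19 fell, beside 17.0%. Col4a1, a basement membrane collagen, rose there from 998, 851 and 1001 to 1833, 1497 and 1926 CPM (paired adjusted p = 1.94e-06, edgeR adjusted p without pairs 0.0586).
Of 23 G1 cyclin, MYC and CDK inhibitor genes, Mycl1 rose from 13.4, 7.77 and 10.8 to 43.1, 42.6 and 52.2 CPM (2.11 ± 0.45, edgeR adjusted p = 0.0155), and Ccnd3 fell by 0.42 ± 0.10 (edgeR adjusted p = 0.0249). The call of Mycl1 was lost without control 11, control 15 or GLI1 OE 16 (up to 0.0746), that of Ccnd3 without any 1 library (up to 0.102), and that of Fbln1 without control 3, control 11, GLI1 OE 4 or GLI1 OE 16 (up to 0.127).

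Among the remaining marker lists, 6 of 8 primitive streak markers fell and 1 rose in the paired fit, 6 of 14 smooth muscle and fibroblast markers fell and 2 rose, 3 of 11 neural markers fell and 1 rose, and 1 of 3 paraxial mesoderm markers moved each way. The same fit called 17.0% of all genes lower and 16.6% higher. Dcx, a marker of young neurons, fell in both fits (-3.03 ± 0.57, edgeR adjusted p = 0.00627). Of 10 measured genes of the paired-box, sine oculis and eyes absent families, 1 rose, Six2, and in the paired fit 2 of 8 rose and 2 fell.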
